A study of Mus musculus with 2 samples.

Results

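Interleukins and their receptors are described here in the jejunal tunica muscularis of mice that lack *Dnmt1*, the maintenance DNA methyltransferase, in smooth muscle cells (SMC). The members are all genes of the mRNA-seq table whose symbol is Il followed by a digit, without the interleukin enhancer binding factors, whose symbols start with Ilf. There were 63 of them among 18159 listed genes. They comprised 23 ligands, 38 receptor chains and 2 other members, the soluble IL-18 inhibitor *Il18bp* and the secreted amino acid oxidase *Il4i1*.

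The study deleted *Dnmt1* with a transgene that expresses Cre recombinase and eGFP from the *Myh11* promoter (smMHC Cre-eGFP/+), which is active in smooth muscle. *Dnmt1*-KO mice carried this transgene with floxed *Dnmt1* (lox/lox), and *Dnmt1*-WT mice carried the transgene too, on a C57BL/6 background and at 15 days of age. The muscle layer was peeled from the jejunal mucosa without sorting cells, so its RNA comes from every cell type in that layer, and in such RNA more cells of a type and more RNA per cell cannot be told apart. Each genotype had 1 library, so no difference has a replicate check and no p-value is given. The study names mice of both sexes for each genotype, and how their RNA was combined into 1 library is not given in the sources used here. The free-text description of the library labelled *Dnmt1*-WT names the knockout genotype, and the strain entry names floxed *Dnmt1* for both libraries, but title and genotype label both say *Dnmt1*-WT.

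The level of *Dnmt1* was 11.58 FPKM (fragments per kilobase of transcript, scaled to the mapped fragments of the library) in *Dnmt1*-WT against 7.58 FPKM in *Dnmt1*-KO, which is 0.655 of the former. The floxed stretch is only part of the gene, and cells that do not express the Cre keep it. The tissue label was checked against 6 smooth muscle markers, which summed to 16194 FPKM in *Dnmt1*-WT and 11874 FPKM in *Dnmt1*-KO, with all 6 lower in *Dnmt1*-KO. *Myh11*, which drives the Cre, was at 2685.29 and 1255.51 FPKM. The 6 leukocyte markers summed to 43.7 and 170.34 FPKM, and all 6 were at least 2-fold higher in *Dnmt1*-KO. The values of other cell types stand beside the receptors, and the part of any cell type in the results was not tested.

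Interleukins are small secreted proteins through which leukocytes, epithelium and stromal cells signal to each other. Most bind a private receptor chain that pairs with a chain shared by a whole family, such as the common gamma chain *Il2rg* or the gp130 chain *Il6st*, and these receptors signal through JAK kinases and STAT transcription factors. The IL-1 and IL-17 families instead use receptors that recruit cytoplasmic adaptors and lead to NF-kappaB. In the gut wall, IL-4 and IL-13 acting through STAT6 are known to increase smooth muscle contractility during worm infection, and the muscularis holds a dense network of resident macrophages.

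Across members above 0 FPKM in both libraries, the 2 most abundant receptor chains, *Il6st* and *Il11ra1*, had nearly equal levels, while a few ligands and receptor chains differed widely. The ligand *Il1f9*, which encodes IL-36 gamma, had the largest ratio of all members, at 28.6, or 7.99 with 1 FPKM added to both values as a pseudocount. The common gamma chain *Il2rg* was 4.74-fold higher in *Dnmt1*-KO, and the IL-13 receptor chain *Il13ra1* was the most reduced member with 1 FPKM or more, at 0.262 of its *Dnmt1*-WT level. The table holds FPKM without read numbers per gene, so values far under 1 FPKM carry little weight and are kept apart.

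Promoter sequence is shown for these 3 members because they are the members with 1 FPKM or more that the results above turn on, and because *Dnmt1* copies methylation at CpG dinucleotides. Each run is the 250 bases before the RefSeq transcription start in GRCm38.p6, written 5′ to 3′ on the gene's own strand with every CpG in capitals. *Il1f9* lies at chr2:24186476-24193567, *Il2rg* at chrX:101264385-101268255 and *Il13ra1* at chrX:36112108-36171262. No annotated exon overlaps any of the 3 stretches.
Il1f9, chr2:24186226-24186475, plus strand: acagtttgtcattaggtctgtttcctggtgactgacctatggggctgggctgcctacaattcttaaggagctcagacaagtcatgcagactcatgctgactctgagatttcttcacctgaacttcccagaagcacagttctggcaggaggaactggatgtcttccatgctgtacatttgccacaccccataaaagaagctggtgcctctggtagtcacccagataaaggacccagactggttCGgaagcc
Il2rg, chrX:101268256-101268505, minus strand: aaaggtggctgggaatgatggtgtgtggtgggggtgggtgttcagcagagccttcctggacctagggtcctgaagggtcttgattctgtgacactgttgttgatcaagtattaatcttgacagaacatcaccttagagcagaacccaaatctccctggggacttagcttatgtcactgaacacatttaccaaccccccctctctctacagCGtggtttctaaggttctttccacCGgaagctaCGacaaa
Il13ra1, chrX:36111858-36112107, plus strand: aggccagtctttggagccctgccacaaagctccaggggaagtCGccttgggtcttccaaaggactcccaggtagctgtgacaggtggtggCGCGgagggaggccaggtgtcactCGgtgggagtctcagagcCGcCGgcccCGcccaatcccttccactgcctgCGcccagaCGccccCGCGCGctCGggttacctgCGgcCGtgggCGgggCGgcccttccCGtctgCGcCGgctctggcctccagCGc
The *Il1f9* stretch holds 1 CpG, that of *Il2rg* holds 3 and that of *Il13ra1* holds 21. No methylation value was analysed here.

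Of the 23 ligands, 16 were above 0 FPKM in both libraries, 5 only in *Dnmt1*-KO, none only in *Dnmt1*-WT, and 2 were listed at 0 in both. Of the 16, 4 were at least 2-fold higher in *Dnmt1*-KO, 1 was at most at 0.5 of its *Dnmt1*-WT level and 11 lay in between, with a median log2 ratio of 0.30. Among the 21 ligands above 0 in either library, 8 were at least 2-fold higher with a pseudocount of 0.1 and 2 with a pseudocount of 1. These 21 include the 5 above 0 only in *Dnmt1*-KO. Of the 8 ligands with 0.5 FPKM or more in both libraries, 1 was at least 2-fold higher. Of the 38 receptor chains, 34 were above 0 in both, 3 only in *Dnmt1*-KO and 1 only in *Dnmt1*-WT. Among the 34, 8 were at least 2-fold higher, 3 were at most at 0.5 and 23 lay in between, with a median log2 ratio of 0.08, or -0.024 where both libraries were scaled to equal FPKM sums. With a pseudocount of 1, 3 of the 38 receptor chains were at least 2-fold higher and 1 was at most at 0.5. Shares over all genes were not computed with a pseudocount or under the 0.5 FPKM filter, so those counts have no background here. Genes above 0 in both libraries numbered 16102 in all, and their median log2 ratio was 0.005; 11.8% were at least 2-fold higher and 4.98% were at most at 0.5. Of all listed genes, 5.25% were above 0 only in *Dnmt1*-KO and 2.92% only in *Dnmt1*-WT. Summed over ligands, the level was 45.93 FPKM in *Dnmt1*-WT and 76.12 FPKM in *Dnmt1*-KO, and summed over receptor chains it was 273.83 and 246.11 FPKM.

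The shares depend on how high a gene is, so the members were also read by their higher value of the 2 libraries. Under 1 FPKM there were 29 members, 20 of them above 0 in both libraries, of which 5 (25%) were at least 2-fold higher and 2 at most at 0.5. All genes of that level gave 27.2% and 12.7%, so the members' shares there were close to the background. Likewise 8 of the 29 low members (27.6%) were above 0 only in *Dnmt1*-KO, against 23.6% of low genes, and 1 only in *Dnmt1*-WT, against 13.7%. From 1 to under 10 FPKM, 6 of 23 members (26.1%) were at least 2-fold higher against a background of 13.3%, and 1 (4.35%) was at most at 0.5 against 4.45%. At 10 FPKM or more, 1 of 8 members was at least 2-fold higher against 5.2% of genes, and 1 was at most at 0.5 against 2.93%. With so few members in these classes, no share was called different from the background.

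**Figure D1:**
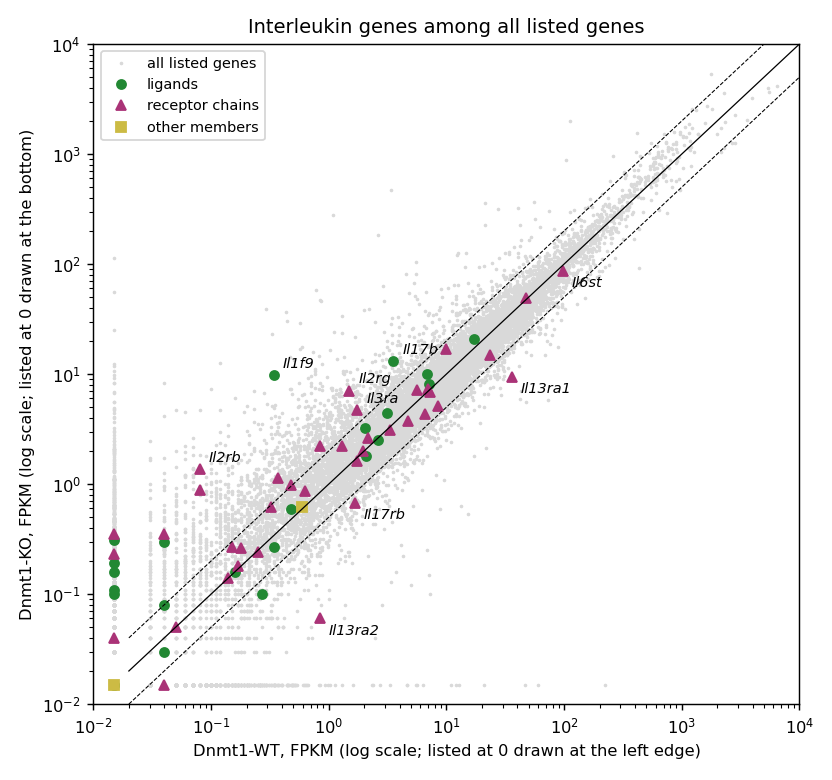
FPKM of all listed genes (grey points), ligands (circles), receptor chains (triangles) and other members (squares) in the *Dnmt1*-WT library (x axis, log scale) and the *Dnmt1*-KO library (y axis, log scale), with genes listed at 0 drawn at the edge. The solid line marks equal levels and the dashed lines a ratio of 2 and of 0.5; *Il1f9* lies far above the upper line, *Il13ra1* below the lower line, and the abundant *Il6st* close to the solid line.

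Among ligands, 9 reached 1 FPKM in at least one library, and 2 of these were at least 2-fold higher in *Dnmt1*-KO, as were 1258 of the 13769 listed genes that passed the same filter and were above 0 in both. *Il1f9* encodes IL-36 gamma, an IL-1 family cytokine made chiefly by epithelia and by myeloid cells. Its level was 0.34 FPKM in *Dnmt1*-WT and 9.71 FPKM in *Dnmt1*-KO. It moved from rank 10 to rank 4 among the ligands. Gut epithelium markers moved in the same direction, with 5 of 6 higher, as were 8106 of all 16102 genes above 0 in both libraries. Their sum was 89.63 and 175.52 FPKM, a ratio of 1.96 against 28.6 for *Il1f9*. Sums of macrophage and neutrophil markers had ratios of 3.52 and 4.49, the latter from 0.79 and 3.55 FPKM. The part of these cells in the result was not tested. A stretch of 285 bases of the *Il1f9* transcript is 95.4% identical to a transcript of *Gm15983*, a gene that the table does not list.

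*Il17b* encodes IL-17B, which binds the receptor chain *Il17rb*. It was at 3.52 FPKM in *Dnmt1*-WT and 13.12 FPKM in *Dnmt1*-KO, a ratio of 3.73, and ranked second among the ligands of *Dnmt1*-KO. Its receptor chain *Il17rb*, shared with IL-25, was at 1.67 and 0.67 FPKM, a ratio of 0.401, or 0.625 with a pseudocount of 1. Ligand and chain thus moved apart, and the level of *Il17b* over that of *Il17rb*, both per length, was 2.11 in *Dnmt1*-WT and 19.6 in *Dnmt1*-KO. Exons of *Il17rb* share 141 bases with *Actr8* on the opposite strand (14.74 and 12.96 FPKM), and whether the counting used strand is not given in the sources used here.

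The most abundant ligand was another IL-17 family member. *Il17d* stood at 17.02 FPKM in *Dnmt1*-WT and 20.87 FPKM in *Dnmt1*-KO. *Il33*, an alarmin kept in the nuclei of stromal and endothelial cells, was at 6.78 and 10.02 FPKM, a ratio of 1.48. *Il18*, an IL-1 family cytokine that caspase-1 matures, was at 7.04 and 8.07 FPKM. These 3 differed by less than 2-fold between the libraries.

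The other 4 ligands above 1 FPKM also stayed within 2-fold. *Il34*, the second ligand of the macrophage receptor *Csf1r*, was at 2.04 FPKM in *Dnmt1*-WT and 3.20 FPKM in *Dnmt1*-KO. *Il16*, a chemoattractant for CD4+ cells cut from a larger precursor, was at 3.12 and 4.44 FPKM. Its exons share 1202 bases with *Stard5* on the opposite strand (9.06 and 10.93 FPKM). *Il15*, which supports natural killer and memory T cells, was at 2.64 and 2.50 FPKM. *Il7*, a survival factor of lymphocytes, was at 2.06 and 1.79 FPKM. These last 2 ligands of the common gamma chain were thus slightly lower in *Dnmt1*-KO.

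The 12 low ligands lay at 0.59 FPKM or below in both libraries. The classical inflammatory cytokines were among them, with *Il1b* at 0.16 FPKM in both libraries and *Il6* at 0.27 and 0.10 FPKM. *Il4* and *Il5*, products of type 2 lymphocytes and mast cells, were listed at 0 in *Dnmt1*-WT and at 0.31 and 0.16 FPKM in *Dnmt1*-KO. *Il12a*, *Il12b* and *Il19* were likewise listed at 0 in *Dnmt1*-WT and at no more than 0.19 FPKM in *Dnmt1*-KO. *Il1a* was at 0.04 and 0.30 FPKM, and the remaining *Il11*, *Il1rn*, *Il23a* and *Il25* were between 0.03 and 0.59 FPKM. *Il17c*, *Il27* and *Il18bp* were listed at 0 in both libraries, and *Il4i1* was at 0.59 and 0.62 FPKM with 3423 exon bases shared with *Tbc1d17* on the opposite strand.

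**Figure D2:**
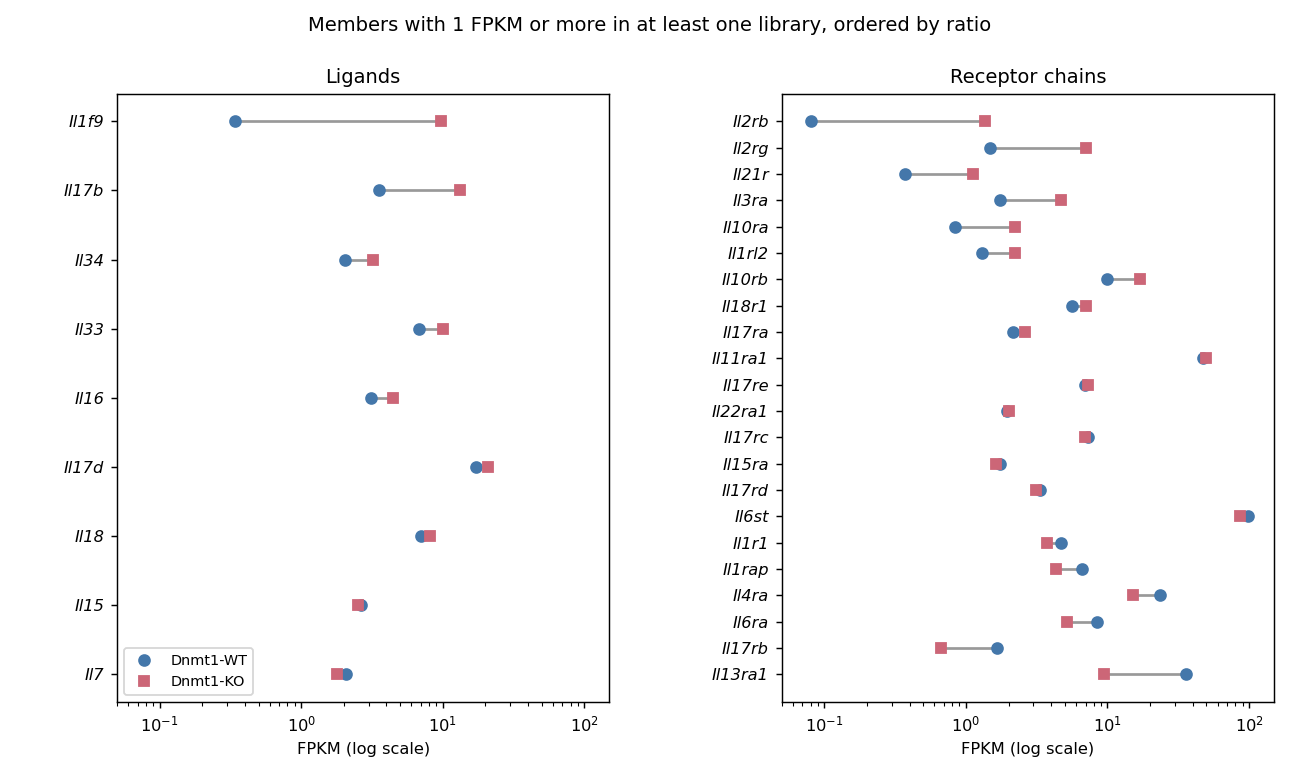
FPKM (x axis, log scale) in *Dnmt1*-WT (circles) and *Dnmt1*-KO (squares) of the 9 ligands (left) and 22 receptor chains (right) that reached 1 FPKM in either library, each row a gene, ordered by ratio. Long lines at the top mark *Il1f9*, *Il17b*, *Il2rb* and *Il2rg*, long lines at the bottom right *Il17rb* and *Il13ra1*, and most other pairs of points lie close together.

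The common gamma family, with the IL-4 and IL-13 receptors, held the widest spread of any receptor family, with 4 of 9 chains at least 2-fold higher and 2 at most at 0.5, against 11.8% and 4.98% of all genes. Of these, *Il7r* and *Il13ra2* were under 1 FPKM in both libraries, where the shares over all genes were 27.2% and 12.7%. *Il2rg*, the signalling chain common to receptors of IL-2, IL-4, IL-7, IL-9, IL-15 and IL-21, was at 1.49 FPKM in *Dnmt1*-WT and 7.06 FPKM in *Dnmt1*-KO. *Il2rb*, which pairs with it for IL-2 and IL-15, was at 0.08 and 1.37 FPKM, a ratio of 17.1, or 2.19 with a pseudocount of 1. *Il21r*, the IL-21 receptor of lymphocytes, was at 0.37 and 1.13 FPKM, a ratio of 3.05, or 1.55 with a pseudocount of 1. All 3 thus reached 1 FPKM in *Dnmt1*-KO, and *Il2rg* alone did so in *Dnmt1*-WT. *Il7r*, the IL-7 receptor chain, was low in both libraries, at 0.04 and 0.35 FPKM. *Il15ra*, which presents IL-15 to neighbouring cells, was at 1.73 and 1.63 FPKM, and *Il2ra*, the alpha chain of the high affinity IL-2 receptor, at 0.18 and 0.26 FPKM. Exons of *Il2rg* share 728 bases with *Gm20489* on the same strand, which the table does not list, so counts could have been split between them.

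Of the IL-4 and IL-13 receptor chains, *Il13ra1*, *Il4ra* and *Il13ra2* were lower in *Dnmt1*-KO, while *Il2rg*, which also pairs with *Il4ra*, was higher as given above. *Il13ra1* binds IL-13 and pairs with *Il4ra* to form the type II receptor found mainly on cells outside the blood lineage. It was at 36.06 FPKM in *Dnmt1*-WT, rank 3 among the receptor chains, and at 9.45 FPKM in *Dnmt1*-KO, rank 5. *Il4ra* was at 23.35 and 15.03 FPKM, a ratio of 0.644. *Il13ra2*, a decoy receptor for IL-13, was at 0.84 and 0.06 FPKM, under 1 FPKM in both libraries. In RNA of the whole layer, the relative levels of chains known to pair with *Il4ra* differed. Whether these chains lie in the same cells cannot be told from such RNA, and pairing was not tested. Per length, the level of *Il13ra1* over *Il2rg* was 24.2 in *Dnmt1*-WT and 1.34 in *Dnmt1*-KO, and that of *Il13ra1* over *Il4ra* was 1.54 and 0.629. The smooth muscle markers were lower too, at 0.733 of their sum and with *Myh11* at 0.468, against 0.262 for *Il13ra1*, and their part in the result was not tested.

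*Il4ra* and *Il21r* are next to each other on chromosome 7 and differed in opposite directions. Their genes lie at chr7:125552271-125579474 and chr7:125603252-125634397, with 23777 bases and no other protein-coding gene of the annotation between them. *Il4ra* had a ratio of 0.644 and *Il21r* one of 3.05. In contrast, the adjacent *Il17re* and *Il17rc* on chromosome 6, with 696 bases between them, had ratios of 1.04 and 0.946.

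The gp130 family held the 2 most abundant chains, both with nearly equal levels in the 2 libraries. *Il6st*, the gp130 signalling chain for IL-6, IL-11 and related cytokines, was at 97.64 FPKM in *Dnmt1*-WT and 86.42 FPKM in *Dnmt1*-KO, the highest of all members in both libraries. *Il11ra1*, the IL-11 binding chain, was second at 47.18 and 49.61 FPKM. Its transcript is 99.0% identical over 1299 bases to that of *Il11ra2* and over 1654 bases to that of *Gm13305*. The table lists neither, so the reads of *Il11ra1* may include those of either copy. *Il6ra*, the IL-6 binding chain, was lower in *Dnmt1*-KO at 8.47 and 5.16 FPKM, a ratio of 0.609. The level of *Il6st* over *Il6ra* was 11.5 and 16.7. *Il27ra* and *Il31ra*, chains carried by lymphocytes and by myeloid or sensory cells, were low, at 0.08 and 0.89 FPKM and at 0.32 and 0.62 FPKM.

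Of the IL-10 family receptors, 5 of 5 chains above 0 in both libraries had a ratio above 1, as had 8106 of all 16102 such genes, and *Il22ra1* turned lower, at 0.956, with equal FPKM sums. Their median ratio was 1.69, and 2 of the 5 were under 1 FPKM in both libraries. *Il10ra*, the IL-10 binding chain of leukocytes, was at 0.84 and 2.22 FPKM, a ratio of 2.64. *Il10rb*, its broadly expressed partner that also serves IL-22, was at 9.96 and 16.84 FPKM. Only *Il10ra* of these 5 passed 2-fold, and with a pseudocount of 1 it was at 1.75. *Il22ra1*, the epithelial IL-22 chain, was at 1.95 and 2.00 FPKM. *Il20ra* and *Il20rb* lay between 0.15 and 0.86 FPKM, and *Il22ra2*, a soluble IL-22 binding protein, was at 0.04 FPKM in *Dnmt1*-WT and listed at 0 in *Dnmt1*-KO. Exons of *Il10rb* share 569 bases with *Gm21970* on the same strand, which the table does not list.

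In the IL-1 family, no receptor chain with 1 FPKM or more passed 2-fold. *Il1rl2*, the receptor chain for IL-36 gamma, was at 1.30 FPKM in *Dnmt1*-WT and 2.23 FPKM in *Dnmt1*-KO, a ratio of 1.72, so ligand and receptor were both higher by very different ratios. *Il1rap*, the accessory chain that IL-1, IL-33 and IL-36 receptors share, was at 6.6 and 4.36 FPKM, a ratio of 0.661. *Il1r1*, the IL-1 receptor, was at 4.68 and 3.75 FPKM. The accessory chain was thus lower while the private IL-36 chain was higher. *Il18r1*, the IL-18 binding chain, was at 5.62 and 7.11 FPKM, and its partner *Il18rap* was listed at 0 and at 0.23 FPKM. *Il1rl1*, the IL-33 receptor of mast cells and type 2 lymphocytes, was at 0.48 and 0.98 FPKM. The decoy *Il1r2* and the neuronal *Il1rapl1* stayed at or below 0.18 FPKM. For *Il1rap*, 552 exon bases are shared with *Gm20319* on the opposite strand (1.38 and 3.22 FPKM).

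A set of 6 of these chains forms a row on chromosome 1 in the order *Il1r2*, *Il1r1*, *Il1rl2*, *Il1rl1*, *Il18r1* and *Il18rap*, with no other protein-coding gene of the annotation between them. Their ratios along the row were 1.06, 0.801, 1.72, 2.04 and 1.27, with the last gene listed at 0 in *Dnmt1*-WT. The neighbours did not share a common ratio.

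Receptors of the IL-17 family all reached 1 FPKM in *Dnmt1*-WT and, apart from *Il17rb*, had nearly equal levels in both libraries. *Il17ra*, the chain shared across the family, was at 2.16 and 2.60 FPKM. *Il17rc*, its partner for IL-17A and IL-17F, was at 7.28 and 6.89 FPKM. *Il17re*, the IL-17C chain, was at 6.95 and 7.26 FPKM, while its ligand *Il17c* was listed at 0. The 4 chains other than *Il17rb* thus lay between ratios of 0.937 and 1.20. *Il17rd*, a chain first known as an inhibitor of FGF signalling, was at 3.34 and 3.13 FPKM.

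Of the common beta chain family, *Il3ra*, the IL-3 binding chain of myeloid cells, was at 1.74 FPKM in *Dnmt1*-WT and 4.67 FPKM in *Dnmt1*-KO, a ratio of 2.68. Its partners in IL-3 signalling are not members but moved the same way, with *Csf2rb* at 0.38 and 2.39 FPKM and *Csf2rb2* at 0.20 and 1.60 FPKM. *Il5ra*, the IL-5 chain of eosinophils, was listed at 0 and at 0.04 FPKM. Receptors of the IL-12 family were low throughout. *Il12rb1* was listed at 0 and at 0.35 FPKM, *Il12rb2* was at 0.25 and 0.24 FPKM, and *Il23r* at 0.05 FPKM in both. For *Il12rb2*, 1519 exon bases are shared with the far more abundant *Serbp1* on the opposite strand (61.38 and 45.43 FPKM).

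**Figure D3:**
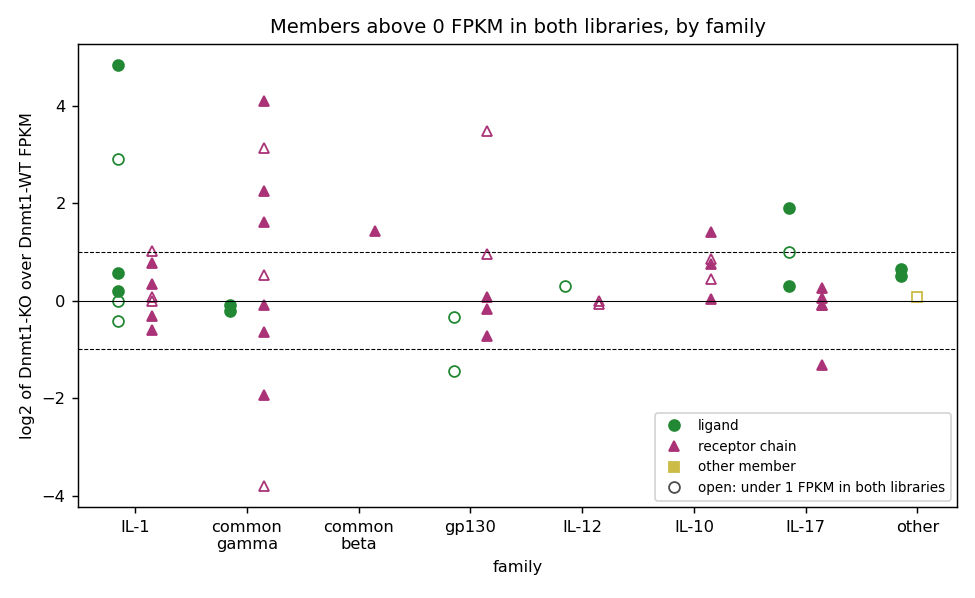
Log2 of the *Dnmt1*-KO over the *Dnmt1*-WT FPKM (y axis) of each member above 0 in both libraries, by family (x axis), with circles for ligands, triangles for receptor chains and squares for other members, and open symbols for members under 1 FPKM in both. Dashed lines mark a ratio of 2 and of 0.5; the common gamma family, drawn with the IL-4 and IL-13 receptors, spans the widest range, and the IL-17 receptors cluster near 0 with *Il17rb* below.

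Levels of ligands and of their binding chains were set side by side. *Il17b* at 13.12 FPKM in *Dnmt1*-KO faced *Il17rb* at 0.67 FPKM, and *Il33* at 10.02 FPKM faced its binding chain *Il1rl1* at 0.98 FPKM and the accessory chain *Il1rap* at 4.36 FPKM. In the opposite sense, *Il11ra1* at 49.61 FPKM faced *Il11* at 0.27 FPKM, and *Il6ra* at 5.16 FPKM faced *Il6* at 0.10 FPKM. *Il6st* also serves ligands that are not members, of which *Ctf1* was at 6.38 and *Clcf1* at 4.73 FPKM in *Dnmt1*-KO. These are levels within 1 tissue sample and say nothing of cytokine that reaches it from elsewhere. *Il1f9* with *Il1rl2*, *Il18* with *Il18r1* and *Il15* with *Il15ra* were pairs in which both sides were above 1 FPKM in *Dnmt1*-KO.

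Downstream of the receptors, 1 of 4 JAK kinases was at least 2-fold higher and none was at most at 0.5, against 11.8% and 4.98% of all genes. *Jak3*, the kinase bound to the common gamma chain, was at 1.19 FPKM in *Dnmt1*-WT and 4.98 FPKM in *Dnmt1*-KO, a ratio of 4.18 beside 4.74 for *Il2rg*. *Jak1*, *Jak2* and *Tyk2* were at 42.07 and 39.48, at 14.41 and 8.78, and at 3.55 and 4.0 FPKM. *Stat2*, a mediator of interferon responses, was at 6.82 and 11.98 FPKM. *Stat6*, which IL-4 and IL-13 receptors activate, was at 23.12 and 20.55 FPKM, and *Stat3*, which gp130 activates, at 43.19 and 56.05 FPKM. *Stat5a* and *Stat5b* stood at 3.29 and 4.10 and at 10.14 and 9.50 FPKM, and *Stat4* was listed at 0 and at 0.18 FPKM. *Jak1*, *Jak2*, *Tyk2* and *Stat6*, which serve *Il13ra1* and *Il4ra*, were thus within 2-fold while *Il13ra1* was not.

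None of the 4 SOCS inhibitors of JAK signalling passed 2-fold in either direction, and their median ratio was 1.43. Of all genes, 11.8% were at least 2-fold higher and 4.98% at most at 0.5. Of 9 adaptors and regulators of the IL-1 and IL-17 receptors, 2 were at least 2-fold higher, against 11.8% of all genes and 13.3% of those from 1 to under 10 FPKM. *Irak3*, an inhibitory kinase homologue of macrophages, was at 0.80 and 3.11 FPKM, and *Sigirr*, an inhibitory receptor, at 0.65 and 1.94 FPKM. Of 7 receptor chains outside the symbol rule that pair with members or bind related cytokines, 4 were at least 2-fold higher, against 11.8% of all genes. They were *Csf2rb*, *Csf2rb2*, the oncostatin M receptor *Osmr* at 4.23 and 9.38 FPKM and the TSLP receptor *Crlf2* at 5.95 and 15.17 FPKM. *Tslp*, the ligand of *Crlf2*, was lower in *Dnmt1*-KO, at 1.55 and 0.89 FPKM. Of the other chains, *Lifr*, which like *Osmr* pairs with gp130, was at 3.44 and 5.23 FPKM, *Cntfr* at 13.46 and 16.67 FPKM and *Csf1r*, the receptor of IL-34, at 14.79 and 26.16 FPKM.

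Among partner ligands, *Ebi3*, the subunit that completes IL-27 and IL-35, was at 1.07 and 4.23 FPKM, while its partners *Il27* and *Il12a* were listed at 0 or near it. *Cntf*, a ligand of the gp130 receptors, was listed at 0 and at 1.02 FPKM. Of 6 genes tied to the inflammasome, which matures IL-1 beta and IL-18, 4 were at least 2-fold higher, against 11.8% of all genes. They were *Casp1* at 1.49 and 5.19 FPKM, the adaptor *Pycard* at 2.43 and 5.96 FPKM, and the sensors *Nlrp3* and *Aim2*, both under 1 FPKM, where 27.2% of all genes were at least 2-fold higher. The inflammasome substrates *Il1b* and *Il18* had ratios of 1.0 and 1.15. Response genes of IL-4 and IL-13 in macrophages were represented by *Retnla* at 2.20 and 38.80 FPKM and *Mrc1* at 7.91 and 17.14 FPKM. Both were higher in the same library in which *Il13ra1* and *Il4ra* were lower, and a response to IL-4 or IL-13 was not tested. *Mrc1* is also among the 9 macrophage markers, with a ratio of 2.17 against 3.52 for their sum. *Retnla* is known in fat as well, and the adipocyte markers, at 3.79 and 252.87 FPKM in sum, were higher too, and their part was not tested.

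Markers of leukocyte types were higher in *Dnmt1*-KO, and their values are given beside members that leukocytes are known to carry. Other members found on leukocytes were not higher, such as *Il15ra* with a ratio of 0.942, *Il4ra* with 0.644 and *Il6ra* with 0.609. *Ptprc*, the pan-leukocyte antigen CD45, was at 0.80 FPKM in *Dnmt1*-WT and 2.71 FPKM in *Dnmt1*-KO, a ratio of 3.39, beside 4.74 for *Il2rg*, 2.64 for *Il10ra* and 2.68 for *Il3ra*. The 9 macrophage markers summed to 143.54 and 505.46 FPKM, and 8 of them were at least 2-fold higher. The 6 T cell markers summed to 0.88 and 3.66 FPKM, with *Cd3e*, *Cd3d* and *Cd2* listed at 0 in *Dnmt1*-WT, beside *Il2rb*, *Il21r* and *Il7r*. The 4 mast cell markers summed to 0.06 and 4.81 FPKM, with *Mcpt4*, *Tpsb2* and *Cma1* at 0 in *Dnmt1*-WT, beside *Il1rl1* and *Il4*. The 4 neutrophil markers summed to 0.79 and 3.55 FPKM with *S100a8* at 0 in *Dnmt1*-WT, and 2 eosinophil markers to 0.07 and 0.57 FPKM with *Prg2* at 0. The part of these cells in the members' ratios was not tested.

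Other cell types of the layer differed as well. The 5 fibroblast markers summed to 2497 and 3921 FPKM and 4 endothelial markers to 36.41 and 83.77 FPKM. Endothelium and fibroblasts are known sources of *Il33*, whose ratio of 1.48 stands beside ratios of 2.30 and 1.57 for these sums. Within the fibroblast list the median ratio was 1.35, and *Pdgfra* was lower, at 68.95 and 40.72 FPKM. Markers of interstitial cells of Cajal summed to 83.95 and 74.51 FPKM, of enteric neurons to 313.70 and 373.14 FPKM, of enteric glia to 59.23 and 88.93 FPKM and of mesothelium to 241.97 and 238.90 FPKM. The part of these cells in the members' ratios was not tested either.

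**Figure D4:**
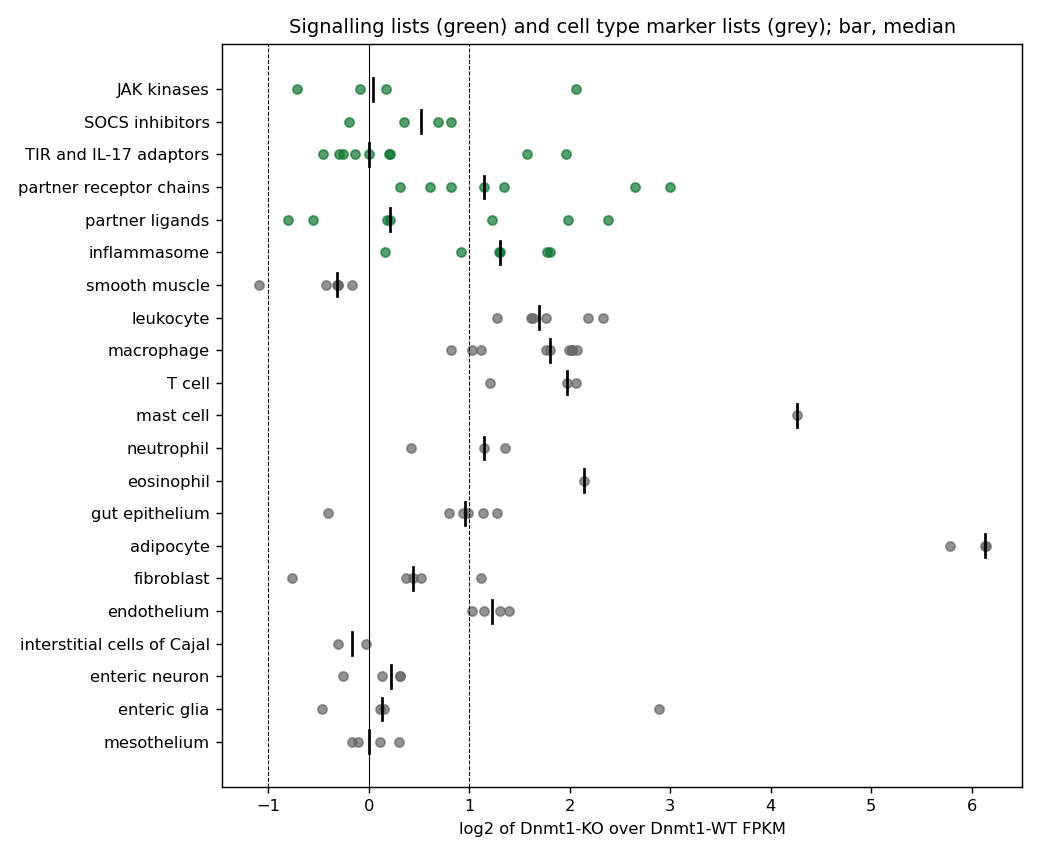
Log2 of the *Dnmt1*-KO over the *Dnmt1*-WT FPKM (x axis) of each gene above 0 in both libraries in 6 signalling lists (green points) and 15 cell type marker lists (grey points), with a black bar at each list's median and dashed lines at a ratio of 2 and of 0.5. The leukocyte and macrophage points lie to the right of 0, the smooth muscle points to the left, and the JAK points around 0 apart from *Jak3*.

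The members' promoters were poor in CpG. RefSeq windows from 250 bases before to 50 after the start matched 49 of the 63 members and 13303 listed genes, and the median CpG number per window was 5 over members and 18 over all these genes. It was 4 over 16 ligands and 7 over 31 receptor chains. Members at least 2-fold higher had a median of 3 CpGs (7 members with a window), those in between one of 7 (29 members) and those at most at 0.5 one of 15.5 (4 members). Over all genes the medians of these classes were 7.5, 20.5 and 12. The 4 members at most at 0.5 fell into 2 pairs, *Il13ra1* with 28 CpGs and *Il17rb* with 32 against *Il13ra2* with 1 and *Il6* with 3. *Il3ra*, with 35 CpGs, was a member at least 2-fold higher despite a CpG-rich window.

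**Figure D5:**
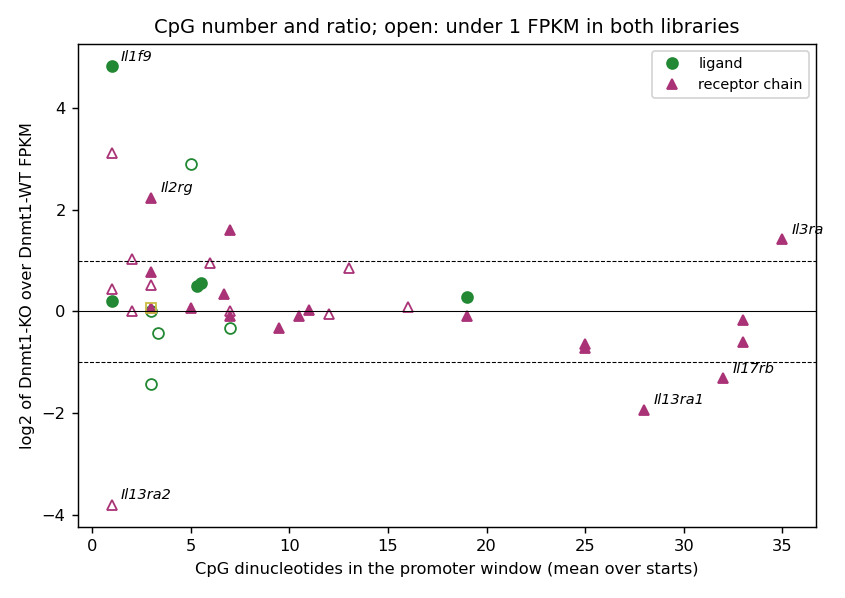
Number of CpG dinucleotides in the promoter window, as the mean over a gene's starts (x axis), and log2 of the *Dnmt1*-KO over the *Dnmt1*-WT FPKM (y axis) for members above 0 in both libraries, with circles for ligands, triangles for receptor chains, squares for other members and open symbols for members under 1 FPKM in both. *Il1f9* and *Il2rg* lie at the upper left with 1 and 3 CpGs, *Il13ra1* and *Il17rb* at the lower right, and *Il3ra* at the upper right.

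The 2 motifs were searched on both strands of the windows, the STAT-type palindrome TTCNNNGAA and the AP-1-type element TGANTCA, whose matches may overlap by some bases. TTCNNNGAA was in the windows of 9 of 49 members (18.4%), against 8.30% of all 32851 windows in the reference. TGANTCA was in those of 11 members (22.4%), against 7.81% of all windows. A gene can have several windows, and over listed genes the shares were 8.59% and 7.13%. Of the 3 stretches printed above, that of *Il1f9* holds TTCNNNGAA and none holds TGANTCA. A match is a description of letters only.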

How the data were processed

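mRNA-seq of jejunal tunica muscularis gave 1 library per genotype. The deposited table holds, per gene symbol, the FPKM of each library, which the authors computed from TruSeq reads mapped to mm10 (GRCm38); the submitters' processing notes name TopHat 1.4.1 and Cufflinks 2.0.2. Another number in the deposited table counts transcript variants found per library. The authors' ratio column was not used. FPKM summed to 429698 in *Dnmt1*-WT and 460845 in *Dnmt1*-KO, and the lowest value above 0 was 0.03 in both. The table gives no read numbers per gene; the study states mapped reads per library, more for *Dnmt1*-WT, which were not used here.

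Members and lists were chosen with earlier results of these data known, and the level classes, CpG classes and adjacent genes were chosen after values were seen. Ratios are plain FPKM ratios over genes above 0 in both libraries, as deposited, with 2 and 0.5 as limits and no test. Named were members with 1 FPKM or more, the others by range, and pathway genes past 2-fold with 1 FPKM or more, with STAT factors, JAK kinases and shared chains. Alternatives were pseudocounts of 0.1 and 1, filters, 3 scalings, folds of 1.5 and 3 and detection limits. The counting was tested on simulated data. All 63 members matched RefSeq loci (GRCm38.p6) and GENCODE M21 names, used for exon overlaps. Transcripts were compared with BLAST+ 2.17.0, and Python 3.11.15 with pandas 2.3.3 was used. Some genes of the lists are not reported here. A planned search for the receptor WSXWS protein motif was not run.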

Additional observations from a re-analysis of the deposited data

How the results depend on the processing

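No paired analysis was possible because each genotype has 1 library, and no library could be left out. Counts under the alternative settings are of members only. Apart from the filter of 1 FPKM in one library, they have no share over all genes at the same setting. Ligands at least 2-fold higher numbered 4 as reported, 8 with a pseudocount of 0.1, 2 with a pseudocount of 1, 2 among those with 1 FPKM in one library and 1 among those with 0.5 FPKM in both; ligands at most at 0.5 numbered 1, and 0 under these 4 settings and at a fold of 3. Receptor chains at least 2-fold higher numbered 8, and 3 with a pseudocount of 1, 5 with 1 FPKM in one library, 3 with 0.5 FPKM in both and 5 at a fold of 3. Those at most at 0.5 numbered 3, and 1 with a pseudocount of 1 and 6 at a fold of 1.5. Detection at 1 FPKM left 1 ligand in *Dnmt1*-KO only, and detection at 0.1 FPKM gave 5 receptor chains. The median log2 ratio of ligands, reported as 0.296, was 0.496 and 0.174 with pseudocounts of 0.1 and 1, 0.509 and 0.402 under the filters of 1 and 0.5 FPKM, 0.326 with the median ratio set to 1 or the upper quartile matched, and 0.195 with equal FPKM sums. That of receptor chains, reported as 0.077, was 0.164, 0.064, 0.05, 0.037, 0.107 and, with equal FPKM sums, -0.024, so its direction depends on the scaling. The 3 scalings multiply *Dnmt1*-KO values by 1.0207, 1.0209 and 0.9324. Of 31 named members, 28 kept their side of 2-fold under 5 settings. With a pseudocount of 1, *Il10ra* was at 1.75, *Il21r* at 1.555 and *Il17rb* at 0.625, and with equal FPKM sums *Il11ra1*, *Il17re* and *Il22ra1* crossed 1, at 0.98, 0.974 and 0.956.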

Other observations

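There were 7 members above 0 in both libraries with 25 or more CpGs in the promoter window, all of them receptor chains, and 6 of these were lower in *Dnmt1*-KO, with a median ratio of 0.644. They were *Il13ra1*, *Il17rb*, *Il6ra*, *Il4ra*, *Il1rap* and *Il6st*, while *Il3ra* was higher. Of 3869 listed genes with such windows, 56.0% were lower, with a median ratio of 0.953. Of the 26 members with under 10 CpGs, 17 were higher, with a median ratio of 1.21, against 58.7% of 2716 listed genes and a median ratio of 1.18. The class limits were chosen after the values were seen.

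The deposited number of transcript variants was larger in *Dnmt1*-KO for 9 of 51 members above 0 in both libraries (17.6%) and smaller for 5 (9.80%). Over all 16102 such genes the shares were 12.5% and 13.6%.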
